A study of Homo sapiens with 9 samples.

Results

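The genes described here are 38 genes of glycolysis and of the cellular response to low oxygen, measured by RNA-seq in DU145 cells in which the Wnt receptor *FZD6* was knocked down. They were chosen by name from these pathways, and 38 of 27860 genes in the tables belong to them. By role they are 17 glycolytic enzymes, 6 transporters and regulators of glycolysis, 2 subunits of the hypoxia-inducible factor (HIF), and 13 other genes that HIF is known to induce. Here 3 groups of 3 libraries were compared. Control cells expressed a scrambled shRNA, and the other groups expressed *FZD6* shRNA1 or *FZD6* shRNA2, hairpins of different sequence against the same transcript. The methods name the pLKO.1 vector for constitutive expression and a further vector for doxycycline-inducible expression. They do not say which was used for these libraries. All groups share the same parental line, DU145, an established human prostate cancer line, and the labels give the genotype of every library as WT. The labels name no low-oxygen treatment. Neither the labels nor the methods say that the libraries of a group came from separate cultures, so the p-values below measure the spread between these libraries, which may be technical.

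Glycolysis splits glucose into pyruvate, and lactate dehydrogenase then turns pyruvate into lactate. Many cancer cells run this pathway at a high rate even with oxygen present. When oxygen falls, the prolyl hydroxylases that mark HIF alpha subunits for destruction slow down, the alpha subunits HIF1A and EPAS1 (HIF-2 alpha) accumulate, and HIF switches on genes for glucose uptake, most glycolytic steps, pH control, blood vessel growth and mitophagy. Since this control acts mainly on the HIF proteins, transcript levels of the subunits do not measure HIF activity.

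HIF binds DNA at a short core written ACGTG or GCGTG, which reads CACGT or CACGC from the other strand; the palindrome CACGTG holds the core on both strands. RefSeq promoters of GRCh38.p14, from 250 bases before to 50 after the start, were available for 35 members, and for each the promoter nearest to the start of its most abundant transcript was searched on both strands. The core was found in 29 of 35 members (82.9%), in 13 of 17 glycolytic enzymes and in 8 of 10 other inducible genes. The nearest promoter lay farthest from that start in *PFKM* (3283 bases), *PGAM1* (1627), *P4HA2* (762), *GAPDH* (747), *PFKP* (422) and *CA12* (264). For these the search did not cover the start itself, and of them only *GAPDH* and *CA12* held the core. In *HK1* (217 bases) and *GPI* (204) the start may also lie outside the searched stretch. The same letters occur in 48.4% of 35116 promoters of all genes and in 62.0% of 13965 promoters of the tested genes. Counted by gene, 71.3% of 9647 tested genes hold them in at least 1 promoter. Their presence is thus common and marks no site of binding. The stretches below show the letters in capitals in 9 members. *EPAS1*, *HK1*, *PFKL*, *PGK1*, *LDHB*, *SLC16A3*, *PFKFB3* and *ADM* are shown since their transcripts differed between the groups in at least 1 comparison, and *CA9* since it is the classical HIF target and was nearly absent here.
EPAS1, chr2:46297278-46297307, plus strand: gggcctgccggcGCGTGcccgcccacacac
HK1, chr10:69318903-69318932, plus strand: accgaccgtcccCACGCctgccgccccgcg
PFKL, chr21:44299877-44299906, plus strand: tgctcagggcccGCGTGacattgcacaggt
PGK1, chrX:78104264-78104293, plus strand: gcctccggagcgCACGTcggcagtcggctc
LDHB, chr12:21657798-21657827, minus strand: ccggaggagacgCACGCagctgactttgtc
SLC16A3, chr17:82228975-82229004, plus strand: CGTGcgcgggggACGTGccgcgccagcgac
PFKFB3, chr10:6202813-6202842, plus strand: accctcctcccCACGTGgaagggggctggg
ADM, chr11:10304960-10304989, plus strand: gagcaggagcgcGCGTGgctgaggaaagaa
CA9, chr9:35673898-35673927, plus strand: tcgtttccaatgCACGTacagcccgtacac
The *SLC16A3* stretch opens inside a further copy of the letters, of which the first base lies just outside it. Positions are given relative to the start of the promoter itself. The letters are centred at −16 in *CA9*, −53 in *SLC16A3*, −99 in *ADM*, −105 in *PFKFB3*, −115 in *EPAS1*, −147 in *HK1* and −162 in *PFKL*. After that start they are centred at 29 in *LDHB* and 30 in *PGK1*. The start of the most abundant transcript lay 217 bases from that of the promoter in *HK1*, 31 in *SLC16A3* and 13 in *LDHB*. In the other stretches shown these starts coincide. *NDRG1*, *VEGFA* and *BNIP3L* are named only.

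The knockdown was checked first. *FZD6* stood at 20.5 ± 0.441 FPKM (SD, n = 3) in control cells, 9.83 ± 0.376 with shRNA1 and 8.11 ± 0.598 with shRNA2. FPKM is a count of sequenced fragments scaled for transcript length and library size, here summed over the RefSeq transcripts of a gene. No knockdown library reached the control range, and the exact permutation test (two-sided) gave p = 0.0238, the smallest possible for 6 against 3 libraries. The epithelial keratins *KRT8* and *KRT18* were abundant, with the 4 epithelial markers summing to 489 to 560 FPKM. Of the other two, *EPCAM* rose by 0.26 on the log2 scale (adjusted p = 0.0173 by limma) and *CDH1*, E-cadherin, fell by 0.28 (adjusted p = 0.0104). *PTPRC* was listed at 0 in every library and *PECAM1*, *COL3A1* and *ALB* were near 0. The summed markers of other cell types were 17.2 to 18.5 FPKM in control and 21.6 to 26.1 in knockdown libraries, nearly all of it *CD68*. *CD68* itself rose by 0.42 on the log2 scale (adjusted p under 0.05 by limma), and passed with each hairpin alone. The part of this in the results below was not tested. The estimated depth was 32.6 to 40.8 M fragments a library.

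The 17 enzymes together made up 1.62% to 1.70% of all summed gene FPKM, and this share overlapped between the groups. *GAPDH*, the dehydrogenase of the middle of the pathway, ranged from 3840 to 4328 FPKM over the 9 libraries. It was followed on this per-length scale by *ENO1* (2214 to 2450), *ALDOA* (1754 to 1970) and *PKM* (1764 to 1906), which make enolase, aldolase and pyruvate kinase. The ranges of *ALDOA* and *PKM* overlapped, so their order is not fixed by these libraries. *TPI1* (572 to 665 FPKM), *LDHA* (545 to 595), *LDHB* (346 to 430), *GPI* (354 to 398) and *PGAM1* (231 to 256) formed the next tier, in which *LDHB* and *GPI* overlapped, as did *TPI1* and *LDHA*. The lowest step of the pathway by FPKM was hexokinase, the enzyme that traps glucose in the cell, with 42.5 to 59.1 FPKM over *HK1* and *HK2* together. Phosphoglycerate kinase, carried by *PGK1* alone, was next at 67.7 to 78.4 FPKM.

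**Figure D1:**
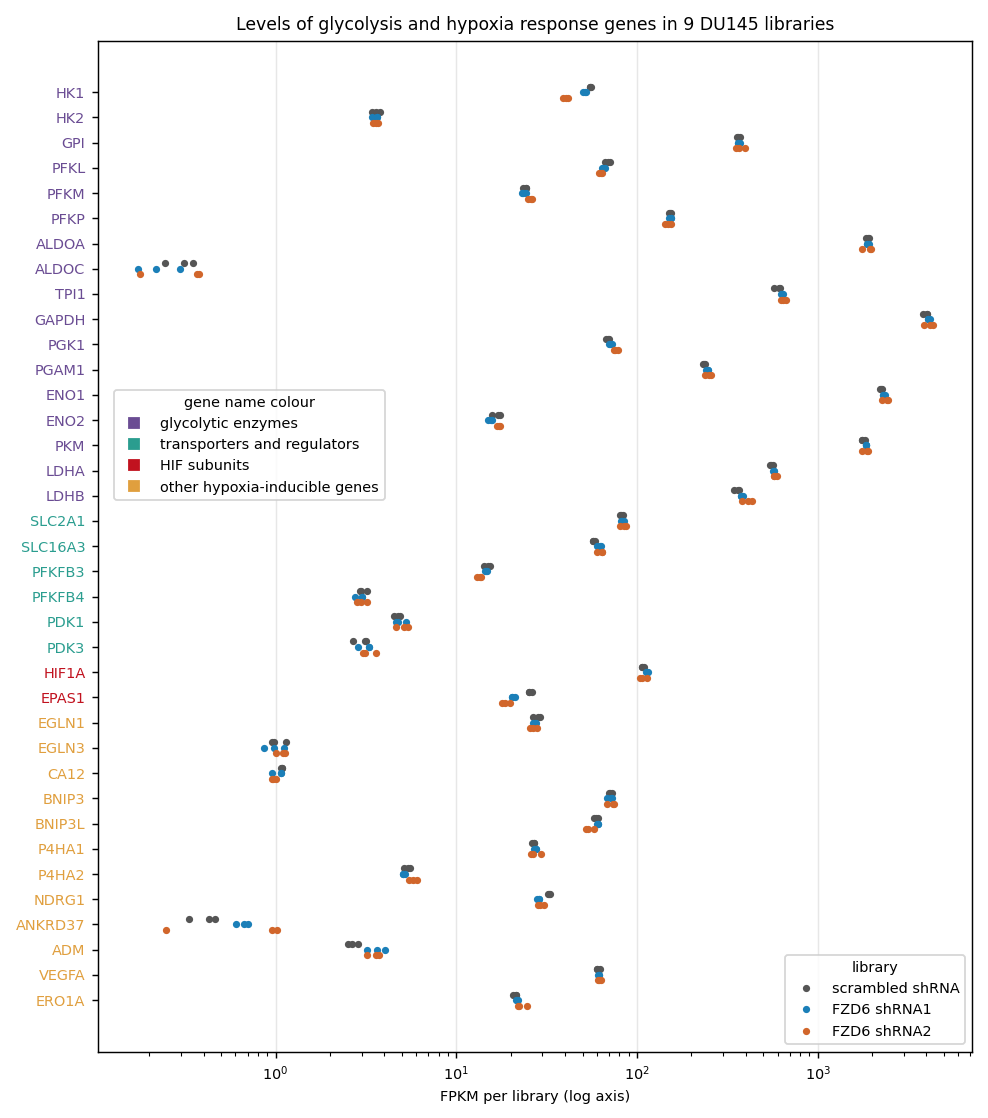
FPKM of 37 members in each of the 9 libraries on a log axis, with points coloured by library group and gene names by role; *CA9*, listed at 0 in 8 libraries, is not drawn. Most members keep to a narrow band across the libraries, and the separation of groups is visible by eye for *HK1*, *EPAS1*, *NDRG1* and *ADM*.

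Each family was dominated by 1 or a few isoenzymes. *HK1*, the housekeeping hexokinase that docks on mitochondria, held 91.8% to 94.2% of hexokinase FPKM, while *HK2*, the inducible form often raised in tumors, stood at 3.40 to 3.79 FPKM. *PFKP* held 61.8% to 63.8% of the phosphofructokinase FPKM, and *PFKL* and *PFKM* the rest. *ALDOA* and *ENO1* each held over 99% of their families. *LDHA*, whose product favours lactate formation, held 57.3% to 61.2% of the lactate dehydrogenase FPKM and *LDHB* the remainder. Of the *LDHA* FPKM, 33.9% was assigned to a RefSeq transcript listed as non-coding. By this split, which is an estimate of the software, *LDHA* holds less of the coding FPKM than these shares give. Within *PKM*, 96.4% to 96.9% of FPKM was assigned to the M2 transcript typical of proliferating cells. The M1 transcripts held 0.402% to 0.574% in control and 0.583% to 0.700% in knockdown libraries, which did not overlap, but both forms share all but 1 exon and the split between them is an estimate of the software.

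Low-oxygen targets differed widely in level. *BNIP3* and *BNIP3L*, mitophagy receptors, *VEGFA*, the vascular growth factor, *P4HA1*, a collagen prolyl hydroxylase, *EGLN1*, the main HIF prolyl hydroxylase, *NDRG1*, a stress-induced protein, and *ERO1A*, an oxidase of the endoplasmic reticulum, all lay between 20.6 and 74.7 FPKM. *P4HA2* (5.05 to 6.07 FPKM), *ADM* (2.53 to 4.01), *EGLN3* (0.867 to 1.14) and *CA12* (0.957 to 1.08) were low. *CA9*, the surface carbonic anhydrase widely used as a marker of hypoxia, was listed at 0 in 8 of 9 libraries and at 0.02 FPKM in the other, shRNA2 replicate 2. *ANKRD37*, an ankyrin-repeat protein, had 0.47, 0.43 and 0.33 FPKM in control libraries, 0.60, 0.67 and 0.71 with shRNA1 and 0.95, 0.25 and 1.02 with shRNA2. These values rest on an estimated 9.57 to 44.5 fragments a library, and the shRNA2 libraries lie on both sides of the control ones. *ALDOC*, the brain aldolase, ranged from 0.173 to 0.379 FPKM with overlapping groups. With *CA9* and *ANKRD37* it fell under the mean of 1 FPKM that a gene needed to be tested, which left 35 members.

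To ask whether *FZD6* knockdown moved these genes, 6 knockdown and 3 control libraries were set against each other by limma on log2(FPKM + 1), across 12509 genes with Benjamini-Hochberg adjustment over all of them. Fold changes are on that scale, which understates changes of low genes. An adjusted p under 0.05 was reached by 5 of 35 members (14.3%), against 20.6% of all tested genes. Of these 2 were higher and 3 lower, where 13.5% of all genes were higher and 7.1% lower. The members' share was below that of all genes here, but with the trend with transcript length removed 5 members and 1516 of all genes passed and the order turned. The difference between the shares was not tested. *ADM* and *SLC16A3* were higher, and *EPAS1*, *NDRG1* and *PFKL* were lower. In bulk RNA, fewer cells that express a gene and less RNA per cell cannot be told apart. The changes were small throughout. The fold change was within 1.2-fold for 32 of 35 members (91.4%), against 92.6% of all tested genes, and the exceptions were *EPAS1*, *ADM* and *HK1*. The 95% interval of the fold change also stayed within 1.2-fold for 32 members, and for 8544 of the 12509 tested genes. By the criteria the study used, an unadjusted p under 0.01 and at least 1.2-fold, *ADM* passed as higher and *EPAS1* as lower, with 2.89% of all genes passing. Applied here to the tested gene sums, these criteria passed 138 genes as higher and 223 as lower. The paper reports more genes in each direction, so its counts were not reproduced.

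**Figure D2:**
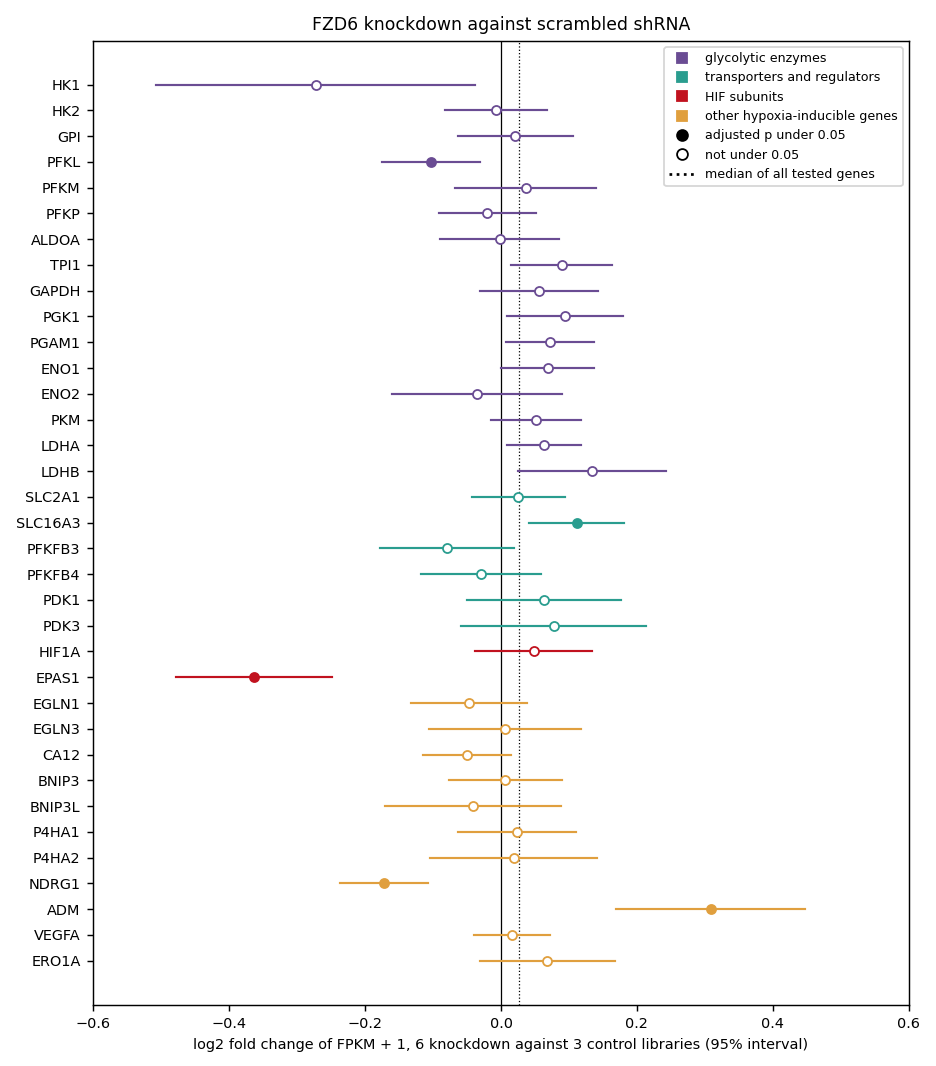
Log2 fold change of FPKM + 1 in 6 *FZD6* knockdown against 3 control libraries for the 35 tested members, with 95% intervals from limma, coloured by role; filled points have an adjusted p under 0.05. The enzymes other than *HK1* lie close to the dotted median of all tested genes, and *EPAS1* and *ADM* are farthest from it on opposite sides.

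For glycolytic enzymes against the other hypoxia-inducible genes, the median log2 fold change was 0.04 over 16 tested enzymes and 0.01 over 11 tested inducible genes, beside 0.03 over all tested genes. Of the enzymes 10 were above 0 and 6 below, with 0 called higher and 1 called lower. Of the inducible genes 7 were above 0 and 4 below, with 1 called in each direction. The 6 transporters and regulators had a median of 0.04. These medians are descriptions of lists chosen by name, and neither they nor the gap between them was tested. The gap of 0.04 was 0.03 to 0.05 when any 1 library was left out. Quantile normalization turned both medians negative, to −0.027 for the enzymes and −0.037 for the inducible genes, so no common direction is given for either list.

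*EPAS1* (chromosome 2, 46297407 to 46386697), the HIF-2 alpha subunit, fell the most of all members by this measure. Its FPKM was 26.2, 25.3 and 25.3 in control libraries, 21.1, 20.5 and 20.3 with shRNA1, and 19.8, 18.7 and 17.9 with shRNA2. All knockdown libraries lay below all control libraries, and those of shRNA2 also lay below those of shRNA1. The log2 fold change of −0.36 (SE 0.051) had an adjusted p of 0.00332 by limma. It was −0.30 with shRNA1 (adjusted p = 0.00524) and −0.43 with shRNA2 (adjusted p = 0.000738). The difference between the shRNAs, −0.13, did not pass the test (adjusted p = 0.0969).

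*HIF1A*, the other alpha subunit and the more abundant one, gave 106, 109.7 and 106 FPKM in control libraries, 113, 115 and 112 with shRNA1 and 107, 114 and 104 with shRNA2. The shRNA1 libraries were all above control, and the shRNA2 libraries overlapped it. The log2 fold change of 0.05 did not pass the test (95% interval −0.04 to 0.13, adjusted p = 0.405 by limma). Since *EPAS1* fell, the ratio of *HIF1A* to *EPAS1* FPKM was 4.05, 4.33 and 4.20 in control libraries, 5.37, 5.62 and 5.54 with shRNA1, and 5.42, 6.12 and 5.82 with shRNA2. All ratios of knockdown libraries exceeded those of control libraries.

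*ADM* (chromosome 11, 10305073 to 10307397), which encodes the vasodilator peptide adrenomedullin, rose. It gave 2.66, 2.85 and 2.53 FPKM in control libraries, 3.64, 3.19 and 4.01 with shRNA1, and 3.73, 3.60 and 3.21 with shRNA2. The groups of knockdown and control libraries did not overlap, while the hairpins overlapped each other. The log2 fold change of FPKM + 1 was 0.31 (SE 0.061) with an adjusted p of 0.0109 by limma, and mean FPKM was 32.9% higher. Each hairpin alone passed the test, at 0.32 for shRNA1 (adjusted p = 0.0239) and 0.29 for shRNA2 (adjusted p = 0.0234). Both calls were lost without control replicate 1 or 3 (adjusted p = 0.0707 and 0.0687 for shRNA1, 0.0665 and 0.0723 for shRNA2). The shRNA1 call was also lost without control replicate 2 (0.0507) or shRNA1 replicate 1 or 3 (0.0714 and 0.0703), and the shRNA2 call without shRNA2 replicate 1 (0.0668). A library held an estimated 170 to 262 fragments of *ADM*, fewer than for the other members called.

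*NDRG1* (chromosome 8, 133237175 to 133297252), a stress-induced gene linked to differentiation, fell although it is a HIF target like *ADM*. Its FPKM was 33.0, 32.7 and 32.3 in control libraries, 28.8, 28.1 and 28.6 with shRNA1, and 30.4, 29.1 and 28.4 with shRNA2. Again no knockdown library reached the control range. The log2 fold change of −0.17 (SE 0.029) had an adjusted p of 0.00608 by limma, with −0.19 for shRNA1 (adjusted p = 0.00804) and −0.15 for shRNA2 (adjusted p = 0.0101). *EPAS1*, *NDRG1* and *ADM* passed the test for the pooled knockdown when any 1 of the 9 libraries was left out.

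The 9 other tested inducible genes did not pass. *VEGFA*, the gene by which low oxygen calls in blood vessels, gave 62.7, 60.3 and 60.2 FPKM in control libraries, 61.1, 62.0 and 61.7 with shRNA1 and 63.1, 60.7 and 61.9 with shRNA2. Its log2 fold change was 0.02, with a 95% interval of −0.04 to 0.07. *BNIP3*, *BNIP3L*, *P4HA1*, *P4HA2*, *EGLN1*, *EGLN3*, *CA12* and *ERO1A* had log2 fold changes between −0.05 and 0.07, with adjusted p of 0.241 or more by limma. With both hairpins pooled, knockdown and control libraries overlapped in every case. With shRNA2 alone, *CA12* lay below and *ERO1A* above control without overlap, where 40.6% of all tested genes do either.

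**Figure D3:**
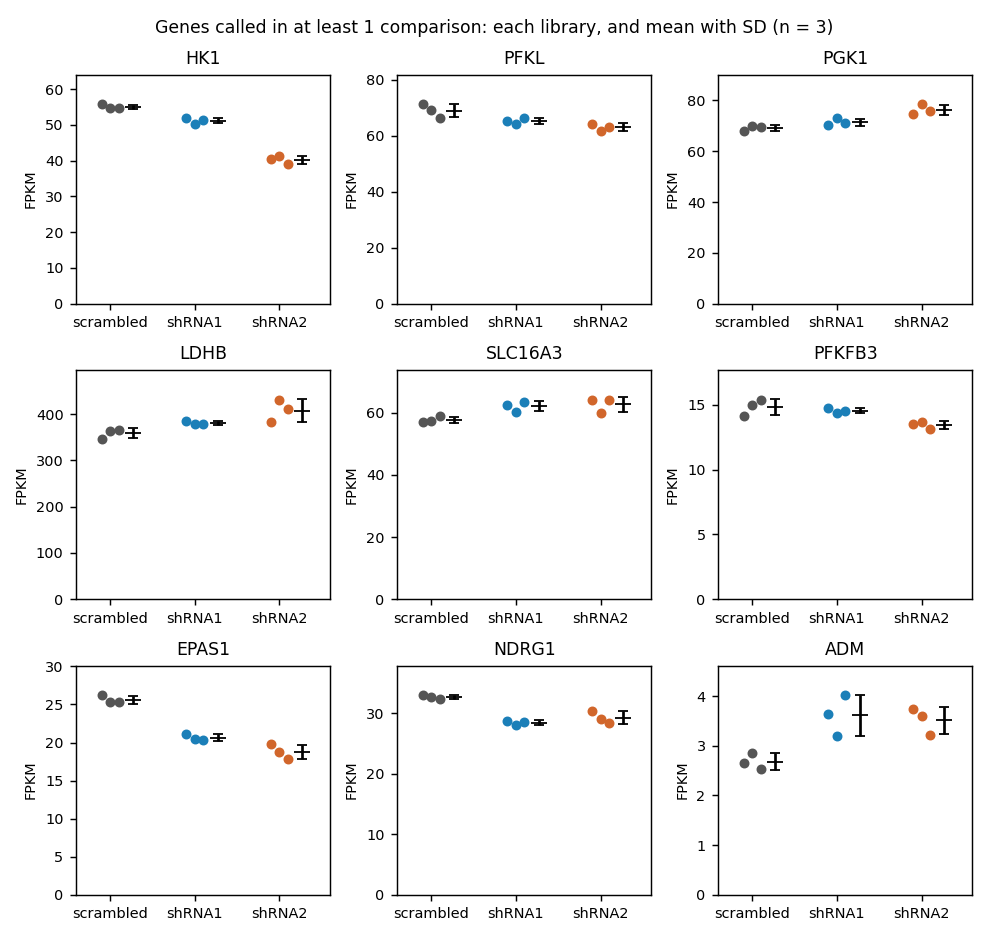
FPKM of the 9 members with an adjusted p under 0.05 in at least 1 comparison: a point for each library, with the mean and SD (n = 3) beside it, on axes that start at 0. *HK1* steps down from control over shRNA1 to shRNA2, *EPAS1* and *NDRG1* are lower and *ADM* is higher with both hairpins, and the means in the remaining panels differ by less than 1.2-fold.

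Each hairpin was then compared with control alone, in a model with 3 groups that share the estimate of the spread. Both comparisons use the same control libraries, so they are not independent. With shRNA1, 4 of 35 members passed the test (11.4%), 1 higher and 3 lower, against 18.8% of all tested genes, 11.7% higher and 7.19% lower. With shRNA2, 9 members passed (25.7%), 4 higher and 5 lower, against 26.7%, 15.3% higher and 11.4% lower. By the study's criteria 1 member passed with shRNA1, against 3.6% of all genes, and 3 with shRNA2, against 4.72%. Of the tested members, 11 lay above and 4 below control without overlap with shRNA1, where 46.8% of all genes do either, and 10 above and 6 below with shRNA2, where 40.6% do. Those passing with both were *ADM*, *EPAS1*, *HK1* and *NDRG1*, each in the same direction with either hairpin.

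*HK1* (chromosome 10, 69270000 to 69401882) was the member on which the hairpins differed. It gave 55.7, 54.7 and 54.7 FPKM in control libraries, 51.9, 50.3 and 51.5 with shRNA1, and 40.4, 41.3 and 39.0 with shRNA2. The groups form 3 separate steps with no overlap. Fold changes on the log2 scale were −0.10 with shRNA1 (adjusted p = 0.044 by limma) and −0.44 with shRNA2 (adjusted p = 0.000292), and mean FPKM fell by 6.95% and 26.9%. The shRNA1 call was lost when any control or shRNA1 library, or shRNA2 replicate 1, was left out, with adjusted p from 0.0609 to 0.139. The difference between shRNA2 and shRNA1 was −0.34 (SE 0.028, adjusted p = 0.000994 by limma). *HK1* alone among the 35 members passed this test, which 6.71% of all genes passed, 1.92% higher and 4.79% lower. It also met the study's criteria there, as 2.14% of all genes did. Without overlap between the hairpins lay 5 members above and 4 below, where 26.4% of all genes do either. Pooled over both hairpins its log2 fold change was −0.27 but did not pass (adjusted p = 0.095), since the gap between the hairpins then counts as spread. Of 23 alternatives of processing, the pooled change of *HK1* passed in 1 (adjusted p = 0.00101 by limma). The target *FZD6* also differed between the hairpins, with a log2 difference of −0.25 (adjusted p = 0.0273). The part of either hairpin's other targets in *HK1* was not tested.

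*HK2* did not separate the groups. Its FPKM was 3.40, 3.79 and 3.61 in control libraries, 3.63, 3.44 and 3.64 with shRNA1 and 3.59, 3.70 and 3.47 with shRNA2, all overlapping. Hexokinase FPKM as a whole was 58.3 to 59.1 in control libraries, 53.7 to 55.6 with shRNA1 and 42.5 to 45.0 with shRNA2, with no overlap. The share held by *HK1* was 93.5% to 94.2% in control libraries, 93.4% to 93.6% with shRNA1 and 91.8% in all shRNA2 libraries.

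The next control point is phosphofructokinase. *PFKL* (chromosome 21, 44300053 to 44327373), the liver-type subunit, gave 71.2, 69.2 and 66.4 FPKM in control libraries, 65.1, 64.1 and 66.3 with shRNA1 and 64.3, 61.7 and 63.2 with shRNA2. Its lowest control library lay just above its highest knockdown library. Its log2 fold change of −0.10 passed narrowly (adjusted p = 0.0499 by limma) and was lost when any 1 library was left out. The adjusted p without 1 library ran from 0.0522 to 0.188. With shRNA2 alone the value was −0.13 (adjusted p = 0.0264), and it no longer passed without control replicate 1 (0.0827), control replicate 2 (0.08) or shRNA2 replicate 3 (0.0639). *PFKL* held 27.3% to 28.5% of the family's FPKM in control and 26.4% to 27.2% in knockdown libraries, a narrow gap. The sum over the family was 243 to 249.6 FPKM in control and 229.8 to 245 in knockdown libraries, which overlap. *PFKM* and *PFKP* had log2 fold changes of 0.04 and −0.02 and did not pass.

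**Figure D4:**
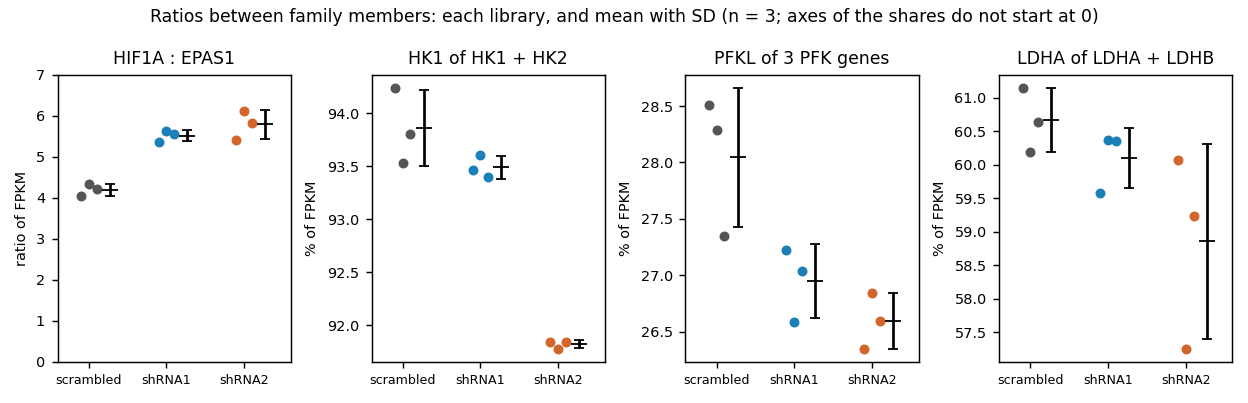
Ratio of *HIF1A* to *EPAS1* FPKM, and the percentage of family FPKM on *HK1*, *PFKL* and *LDHA*, in each library with the mean and SD (n = 3); only the first axis starts at 0. The ratio is above 5 in all knockdown libraries and under 5 in control libraries, and the shRNA2 libraries have the lowest *HK1* shares.

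From triose phosphate isomerase onward, most enzymes had values a few percent above control, a direction that quantile normalization turned for *TPI1*, *PGAM1*, *ENO1*, *PKM* and *LDHA*. *PGK1* (chromosome X, 78104248 to 78129295), which makes the first ATP of the pathway, gave 67.7, 69.9 and 69.6 FPKM in control libraries, 70.4, 73.0 and 71.0 with shRNA1 and 74.7, 78.4 and 75.6 with shRNA2. It passed with shRNA2 (log2 fold change 0.14, adjusted p = 0.0122 by limma) but not in the pooled comparison (0.09, adjusted p = 0.109). Quantile normalization ended the shRNA2 call (0.11, adjusted p = 0.0524). *LDHB* (chromosome 12, 21635342 to 21657842) gave 346, 364 and 365 FPKM in control libraries, 385, 378 and 378 with shRNA1 and 383, 430 and 410 with shRNA2. *LDHB* likewise passed with shRNA2 (0.18, adjusted p = 0.0219 by limma) and not in the pooled comparison (0.13, adjusted p = 0.0797). Its call was lost without control replicate 1 (0.0722), control replicate 2 (0.0528) or shRNA2 replicate 3 (0.0624), and with the trend with transcript length removed (0.09, adjusted p = 0.24).

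*LDHA* gave 545, 550 and 563 FPKM in control libraries, 567, 575 and 576 with shRNA1 and 576, 577 and 595 with shRNA2. All knockdown libraries were above all control libraries, yet by 0.06 on the log2 scale, and it did not pass (adjusted p = 0.0974 by limma). *TPI1*, *PGAM1* and *ENO1* had the same pattern, with log2 fold changes of 0.09, 0.07 and 0.07. In all, 8 of 35 members lay above and 4 below control without overlap, as 25.9% of all tested genes do in either direction. Reads of *PGAM1* may be split with its near-identical retrogene *PGAM4*, listed at 76.4 to 83.5 FPKM, so its level is uncertain. *GAPDH*, *PKM*, *GPI*, *ALDOA* and *ENO2*, the neuronal enolase, had log2 fold changes of −0.04 to 0.06, and pooled knockdown and control libraries overlapped. With shRNA1 alone, *GAPDH* and *PKM* lay above control without overlap, where 46.8% of all tested genes lie above or below.

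Glucose enters through *SLC2A1* (GLUT1) and lactate leaves through *SLC16A3* (MCT4). *SLC2A1* gave 83.3, 80.7 and 82.0 FPKM in control libraries, 82.4, 81.5 and 84.4 with shRNA1 and 86.8, 80.5 and 85.2 with shRNA2, which overlap (log2 fold change 0.03, 95% interval −0.04 to 0.09). *SLC16A3* (chromosome 17, 82217934 to 82240086) gave 57.0, 57.2 and 58.9 FPKM in control libraries, 62.5, 60.4 and 63.5 with shRNA1 and 64.1, 60.0 and 64.0 with shRNA2. The exporter was above control in every knockdown library. The log2 fold change of 0.11 (SE 0.031) had an adjusted p of 0.0347 by limma. It passed without replicate 2 of either shRNA, and without any 1 of the other 7 libraries it did not (adjusted p from 0.0571 to 0.124). The call also ended with median centring (adjusted p = 0.0744) and quantile normalization (0.07, adjusted p = 0.135). *SLC16A3* passed with shRNA2 alone (adjusted p = 0.0433 by limma) and not with shRNA1 alone. That shRNA2 call held in 1 of 9 fits that left out 1 library. It ended with median centring (adjusted p = 0.0827), quantile normalization (0.102) and the trend with transcript length removed (0.172).

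Among the regulators, *PFKFB3* (chromosome 10, 6144921 to 6326637), which makes the activator of phosphofructokinase fructose 2,6-bisphosphate, gave 14.2, 15.0 and 15.4 FPKM in control libraries, 14.7, 14.4 and 14.5 with shRNA1 and 13.5, 13.7 and 13.1 with shRNA2. The shRNA2 libraries alone lay below control, and the gene passed only there (log2 fold change −0.13, adjusted p = 0.0251 by limma), while the difference between the hairpins did not pass (adjusted p = 0.11). The shRNA2 call was lost without control replicate 2 or 3 or shRNA2 replicate 1 or 3, with adjusted p from 0.0538 to 0.081. *PFKFB4*, its relative, and the pyruvate dehydrogenase kinases *PDK1* and *PDK3*, which hold pyruvate back from mitochondria, ranged from 2.68 to 5.39 FPKM. Their log2 fold changes were −0.03, 0.06 and 0.08 with overlapping groups. Of the *PDK1* FPKM, 88.0% was assigned to a RefSeq transcript listed as non-coding. The values of *PDK1* were thus mostly not assigned to its coding transcripts, and this split is an estimate of the software.

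Transcript length moved with the fold change across genes. Over 12092 tested genes with a length, Spearman's rho between length and log2 fold change was −0.445, a description across genes that share libraries, and it was 0.0559 for shRNA2 against shRNA1. The median length was 2384 bases for the enzymes, 2807 for the other inducible genes and 2670 for all tested genes. When the trend with length was removed from each library, *EPAS1* stayed at −0.32 (adjusted p = 0.00898 by limma), *NDRG1* at −0.20 (adjusted p = 0.006) and *ADM* at 0.24 (adjusted p = 0.0417), though *ADM* then missed the threshold with each hairpin alone (adjusted p = 0.0753 and 0.0658). *PFKL* moved to −0.13 (adjusted p = 0.034). *SLC16A3* was at 0.05 and did not pass (adjusted p = 0.251), and *PGK1* passed at 0.13 (adjusted p = 0.0468). *LDHA*, *TPI1* and *GAPDH* then lay at or within 0.02 of 0. The difference in *HK1* between the hairpins was −0.34 with the trend removed as well.

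**Figure D5:**
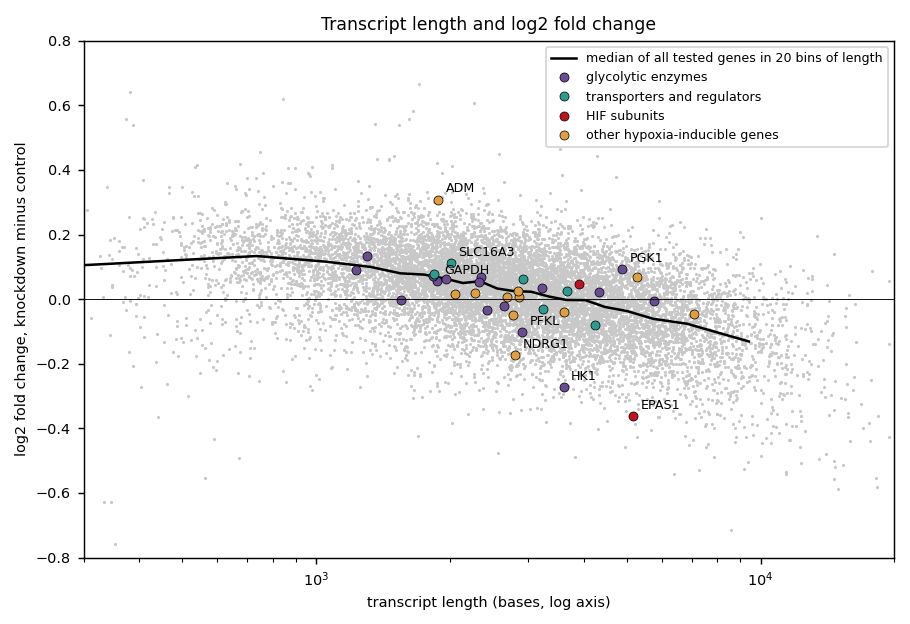
Log2 fold change in knockdown against control plotted over transcript length on a log axis, with tested genes in gray, their median in bins of length as a line, and members coloured by role; 471 of 12092 genes lie outside the axes. The gray cloud and its median slope downward with length, and *EPAS1*, *HK1*, *NDRG1* and *ADM* lie away from the median at their lengths.

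Other genes of the same pathways, from lists drawn up by name, are read against the same 20.6% of all tested genes called, 13.5% higher and 7.1% lower. Of 27 tested genes linked to glycolysis, 1 was higher and 1 lower (7.41%). *TALDO1*, the transaldolase of the pentose phosphate pathway, rose by 0.12 (adjusted p = 0.0469 by limma) and *PDK4*, a further pyruvate dehydrogenase kinase, fell by 0.21 on the log2 scale (adjusted p = 0.011). Of 12 tested genes of oxygen sensing and the HIF complex, 1 was higher and 2 lower (25.0%). *RBX1*, of the VHL ubiquitin ligase, was higher by 0.17 (adjusted p = 0.0347), and *EP300* and *CREBBP*, acetyltransferases that HIF recruits, were lower, with log2 fold changes of −0.36 (adjusted p = 0.00665) and −0.30 (adjusted p = 0.00492). With the length trend removed *EP300* was at −0.23 and *CREBBP* at −0.18, both still passing, and *RBX1* and *TALDO1* no longer passed.

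Of 34 tested further hypoxia-inducible genes, 3 were higher and 3 lower, 17.6% in all beside the 20.6% of all tested genes. *ANGPTL4*, a lipase inhibitor, was at 0.32 (adjusted p = 0.00385 by limma), *EDN1*, the vasoconstrictor endothelin, at 0.22 (adjusted p = 0.0236) and *MIF*, a cytokine, at 0.18 (adjusted p = 0.049). The lower ones were *CCNG2*, a cyclin of arrested cells, at −0.20 (adjusted p = 0.0142), *KDM4B*, a histone demethylase, at −0.19 (adjusted p = 0.0146) and *AK4*, a mitochondrial adenylate kinase, at −0.09 (adjusted p = 0.0446). With the length trend removed *ANGPTL4* and *KDM4B* still passed, and the other 4 did not. *LOXL2*, a lysyl oxidase that was picked out after its values were seen, shared the pattern of *HK1*, with a log2 difference of −0.37 between shRNA2 and shRNA1 (adjusted p = 0.00141).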

How the data were processed

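RNA-seq tables of 9 DU145 libraries were analyzed. The authors used STAR to map the reads and Cufflinks to calculate the deposited FPKM, a unit that corrects for depth and transcript length. The labels name hg38, and the loci are human, although the methods name mm10. FPKM were summed over the RefSeq entries of each gene, coding or not. The 42 genes with an entry not marked OK were left out, and a gene was tested where its mean over all libraries reached 1 FPKM. Depth was estimated from the confidence bounds of the tables, and 3 libraries per group limit the precision.

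Values were transformed as log2(FPKM + 1) and compared in R 4.3.3 by limma 3.58.1. P-values were adjusted by Benjamini-Hochberg over all tested genes, and 0.05 was the threshold. Transcript lengths came from GENCODE v29 and promoters from RefSeq GRCh38.p14. Trends with length were removed by lowess with a span of 0.3. The fits were tested on simulated data. Summaries and plots used Python 3.11.15, pandas 2.3.3, scipy 1.17.1 and matplotlib 3.10.9. The two-sided exact permutation p of scipy doubles the smaller tail.

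The members, the lists and the comparisons were chosen with earlier results of these data known. Every member is named, with values per library for those called in a comparison and for *SLC2A1*, *HK2*, *LDHA*, *PGK1*, *CA9*, *VEGFA*, *HIF1A* and *EPAS1*; of the other lists, up to 3 called genes in each direction are named. Alternatives were other pseudocounts, filters, scalings, entries and models, the replicate number as a block, and leaving out each library. A mean-variance trend in limma was added after the data were seen.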

Additional observations from a re-analysis of the deposited data

Results flagged for a closer look

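Among the 6 knockdown libraries, 1 library lay far from the other 5 for 3 of 35 members tested for this, where 1 in 20 of them is 1.75. That figure takes the 6 libraries as alike and the genes as independent. Both hairpins are pooled here and the genes share libraries, so the count is a description only. *GPI* had 398 FPKM in shRNA2 replicate 1, above the other libraries. *LDHA* had 595 FPKM in shRNA2 replicate 3, and *ERO1A* had 24.6 FPKM in shRNA2 replicate 2. None of these genes was called in a comparison.

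*HK1* differed between the hairpins, with a log2 fold change of −0.34 for shRNA2 against shRNA1 that passed the test across all genes. It was lower in all 3 shRNA2 libraries than in all 3 shRNA1 libraries.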

How the results depend on the processing

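Over the pooled comparison 5 members passed, and 3 did with median centring, 8 in a model with 3 groups, 2 by the study's criteria and 2 with a replicate block and the length trend removed; the pairing of numbers was not borne out by the libraries (correlations of same-numbered deviations −0.071 to 0.111), and the block alone gave 4. Quantile normalization gave 7 calls, 1 higher and 6 lower. Of the enzymes 1 passed, and 4 did with quantile normalization or 3 groups, 2 with the length trend removed, and 0 with pseudocounts of 0.1 or 0.01, median centring, either block, protein-coding entries or the study's criteria. Of the other inducible genes 2 passed, and 1 did with a filter of 5 FPKM, with the block and length removed, or by the study's criteria. With shRNA1 1 and with shRNA2 3 members met the study's criteria. Between hairpins 4 passed with the length trend removed and 3 with the block as well. The median of the enzymes moved to −0.027 with quantile normalization and 0.0015 with length removed (with or without the block), and that of the inducible genes to −0.037 and −0.026. Leaving out 1 library gave 3 to 4 members for the pooled knockdown (3 without any control library, shRNA1 replicate 1 or 3 or shRNA2 replicate 1 or 3), with 0 enzymes and 2 inducible genes each time. It gave 2 to 6 for shRNA1 (2 without control replicate 1 or 3 or shRNA1 replicate 1 or 3), 5 to 14 for shRNA2 (5 without control replicate 1 or 2 or shRNA2 replicate 3, 14 without shRNA2 replicate 2), and 1 to 2 between hairpins (2 without shRNA2 replicate 2 or 3). Of all tested genes 2578 passed, and 926, 1145 and 1475 did without control replicate 2, 1 and 3, 1516 with the length trend removed, 1099 with the block as well, and 361 by the study's criteria. No member called in the pooled comparison turned sign. With quantile normalization *PFKP* (−0.08, adjusted p = 0.0433), *ALDOA* (−0.11, adjusted p = 0.0344) and *PKM* (adjusted p = 0.035) passed as lower, and *PKM* had turned sign to do so. The log2 fold changes that turned were, with quantile normalization *GPI* −0.076, *TPI1* −0.00067, *PGAM1* −0.0051, *ENO1* −0.0010, *PKM* −0.097, *LDHA* −0.081, *SLC2A1* −0.026, *BNIP3* −0.041 and *VEGFA* −0.037. With the length trend removed, with or without the replicate block, they were *HK2* 0.050, *TPI1* −0.012, *GAPDH* −0.012, *LDHA* −0.00018, *EGLN1* 0.040, *EGLN3* −0.026, *BNIP3* −0.019, *P4HA1* −0.0024, *P4HA2* −0.030 and *VEGFA* −0.043. Without 1 library, *HK2* ranged from −0.038 to 0.022, *GPI* from −0.00064 to 0.033, *ALDOA* from −0.020 to 0.019, *EGLN3* from −0.018 to 0.046, *BNIP3* from −0.0076 to 0.023 and *P4HA2* from −0.0084 to 0.038. The cause of these changes was not tested.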
